A study of Mus musculus with 9 samples.

Results

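Genes grouped under the extracellular ATP and adenosine pathway were followed in 3 populations of innate intraepithelial lymphocytes from the mouse small intestine. The group includes P2ry14 and Upp1, whose products act on UDP sugars and uridine rather than on ATP or adenosine. Of 10 named genes, 8 had a row of their own on the arrays and 2, the adenosine receptor genes Adora2a and Adora2b, were not analysed here, among 19938 genes tested in all. The members were Entpd1 and Nt5e, the nucleotide receptor genes P2rx7, P2rx4 and P2ry14, and the nucleoside enzyme genes Ada, Pnp and Upp1. Each was chosen by its symbol in the annotation of the platform and had 1 row listed for that symbol alone.

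The 3 populations were Ly49E+CD8aa+, Ly49E+CD8aa- and Ly49E-CD8aa+ cells, with 3 arrays each numbered as biological replicates. All came from NOD-SCID mice aged 8 to 10 weeks and were sorted as CD3- CD45+ cells, so that every population shared the NOD strain and the Scid defect, under which mature T and B cells are lacking. Ly49E belongs to the C-type lectin-like Ly49 receptors, and CD8aa pairs the CD8 alpha chain with itself. No treatment was given. The labels do not say whether mice were pooled for an array, so p-values measure the spread between these samples. Values were log2 expression values from RMA, and levels below are on that scale.

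ATP released by stressed or dying cells acts as a danger signal on P2X and P2Y receptors. At the cell surface CD39, the product of Entpd1, removes phosphates from ATP and ADP, and CD73, the product of Nt5e, turns the resulting AMP into adenosine, which dampens lymphocytes through adenosine receptors. Adenosine deaminase, encoded by Ada, converts adenosine to inosine, purine nucleoside phosphorylase, encoded by Pnp, cleaves inosine and guanosine, and uridine phosphorylase, encoded by Upp1, cleaves the pyrimidine nucleoside uridine. CD39 and CD73 are well known on intestinal intraepithelial lymphocytes.

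The sort markers were checked first. Klra5, which encodes Ly49E and belongs to a family open to cross-hybridisation, averaged 11.40 ± 0.103 in Ly49E+CD8aa+, 11.43 ± 0.0654 in Ly49E+CD8aa- and 6.59 ± 0.982 in Ly49E-CD8aa+ cells (SD, n = 3 each). Cd8a averaged 12.55 ± 0.0668, 11.42 ± 0.143 and 12.58 ± 0.0669 in the same populations, so the CD8aa- cells still had a high Cd8a level. Ptprc, the CD45 gene, was even, with means of 11.83, 11.82 and 11.85. Cd3e was at 11.75, 10.70 and 11.67 although the cells were gated as CD3-, and Cd8b1 at 5.28, 8.34 and 5.30. Array medians ran from 5.76 to 5.82, and the values carry no detection calls, so a low level is no proof of absence.

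Upp1 and Entpd1 separated Ly49E+CD8aa- cells from both CD8aa+ populations, in opposite directions. Upp1 was 16.8-fold lower in Ly49E+CD8aa+ cells when set against Ly49E+CD8aa- cells, and 14.9-fold higher in Ly49E+CD8aa- cells when set against Ly49E-CD8aa+ cells. Both are folds of the RMA values, and the CD8aa+ levels of Upp1 lay near the array medians, where signal is not separated from background, so the true ratio was not measured and may be larger. Entpd1 was 1.48-fold higher in Ly49E+CD8aa+ cells when set against Ly49E+CD8aa- cells, and at 0.678 of the Ly49E-CD8aa+ level in Ly49E+CD8aa- cells. In a moderated F test over the 3 populations (limma with Benjamini-Hochberg adjustment over all genes, threshold 0.05), these 2 of 8 members passed, against 2.03% of all genes. The members were chosen with earlier results of these data known, so shares here and below are descriptions and no test of the pathway. The other 6 members did not pass in any comparison, P2ry14 and Nt5e among them. Both pairs of differences rest on the same Ly49E+CD8aa- arrays and are not independent of each other.

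Between Ly49E+CD8aa+ and Ly49E-CD8aa+ cells, the comparison that asks what goes with Ly49E among CD8aa+ cells, 0 of 8 members passed in limma, against 0.13% of all genes (0.0201% higher and 0.11% lower). At an unadjusted p under 0.05 there were 3, Nt5e, P2ry14 and Pnp, against 4.18% of all genes. The arrays did not overlap in 4 of 8 members, against 6.25% of all genes, and 1 of the 4 was P2rx7, whose difference was only -0.027. Between Ly49E+CD8aa+ and Ly49E+CD8aa- cells, which asks what goes with CD8aa among Ly49E+ cells, 2 of 8 members passed against 1.7% of all genes. Entpd1 was higher, as were 0.476% of all genes, and Upp1 lower, as were 1.22%. At an unadjusted p under 0.05 there were 3 members against 9.43%, and the arrays did not overlap in 4 members against 12.9%. Between Ly49E+CD8aa- and Ly49E-CD8aa+ cells, 2 of 8 members passed against 2.15%, Upp1 higher (1.35% of all genes) and Entpd1 lower (0.802%). At an unadjusted p under 0.05 there were 4 members against 10.4%, and the arrays did not overlap in 4 members against 12.7%. The median difference of the 8 members was -0.043, 0.056 and -0.0057 in the 3 comparisons, beside -0.00049, 0.025 and -0.024 over all genes.

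**Figure D1:**
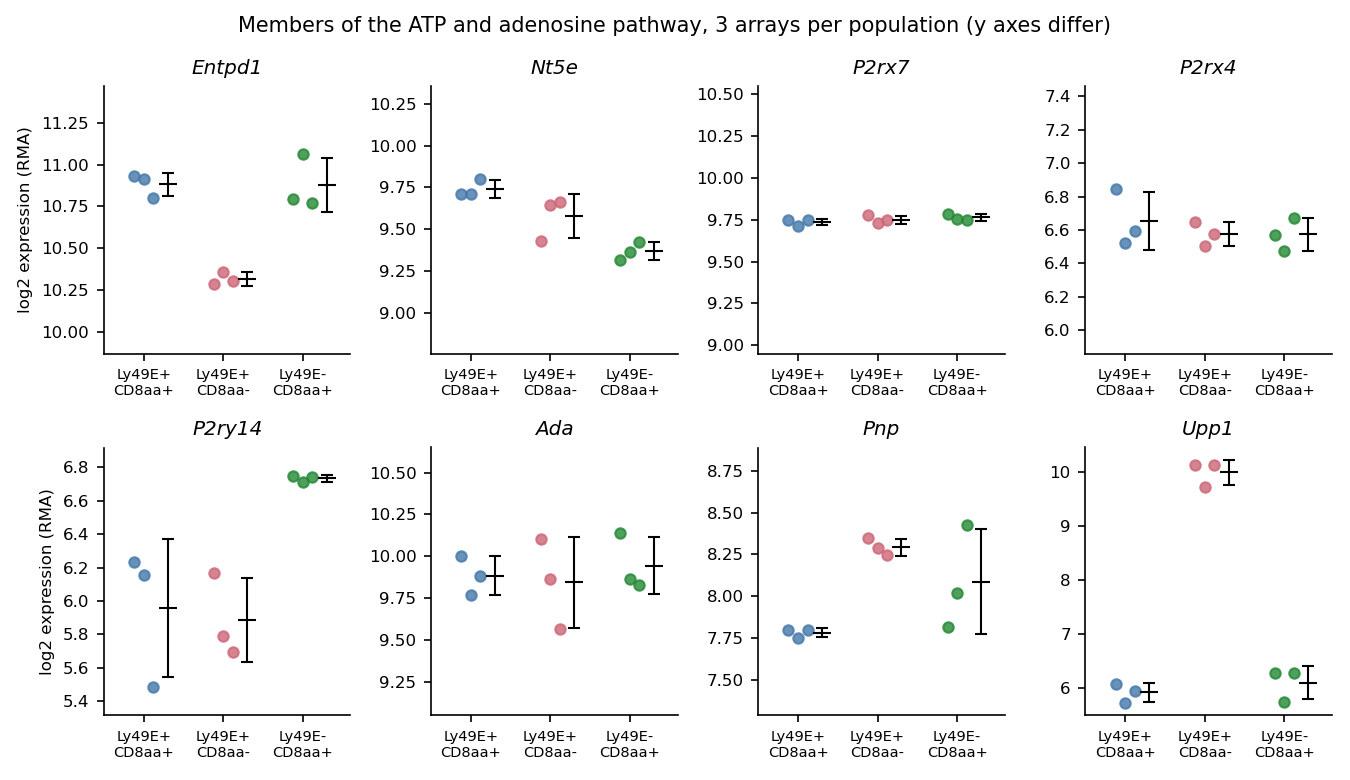
Log2 expression (RMA) of the 8 members in each population, 1 point per array (n = 3) with the mean and SD in black beside them; the y axes differ between genes. The 3 Ly49E+CD8aa- arrays of Upp1 sit at 9.72 to 10.13, above every CD8aa+ array, and those of Entpd1 at 10.28 to 10.36, below every CD8aa+ array.

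Entpd1 encodes CD39, the first enzyme of the surface chain. Its levels were 10.93, 10.91 and 10.80 in Ly49E+CD8aa+ cells, 10.28, 10.36 and 10.31 in Ly49E+CD8aa- cells, and 10.80, 11.06 and 10.77 in Ly49E-CD8aa+ cells. The Ly49E+CD8aa- arrays were the 3 lowest and did not overlap with either CD8aa+ population, while the CD8aa+ populations overlapped. The log2 difference of Ly49E+CD8aa+ minus Ly49E+CD8aa- was 0.57 (SE 0.0870, limma adjusted p = 0.0105), and that of Ly49E+CD8aa- minus Ly49E-CD8aa+ was -0.56 (SE 0.0870, limma adjusted p = 0.0102). The levels were thus ordered with Ly49E+CD8aa- below the CD8aa+ pair, whose own difference of 0.0045 had a 95% interval from -0.19 to 0.20. The first of these calls was lost by a narrow margin without Ly49E+CD8aa+ replicate 1, without Ly49E+CD8aa+ replicate 2 and without Ly49E+CD8aa- replicate 3 (limma adjusted p = 0.0505, 0.0547 and 0.0510), with differences between 0.54 and 0.56. The second was lost in a fit of the 6 arrays of that comparison alone (limma adjusted p = 0.0521).

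Nt5e encodes CD73, which finishes the chain to adenosine. It passed in no comparison. Its levels were 9.71, 9.71 and 9.80 in Ly49E+CD8aa+ cells, 9.43, 9.64 and 9.66 in Ly49E+CD8aa- cells, and 9.32, 9.36 and 9.42 in Ly49E-CD8aa+ cells. The populations did not overlap and stood in that order, but the gap between the lowest Ly49E+CD8aa- and the highest Ly49E-CD8aa+ array was under 0.01. The largest difference, Ly49E+CD8aa+ minus Ly49E-CD8aa+, was 0.37 (95% interval 0.20 to 0.55) and did not pass (limma adjusted p = 0.325). The other differences were 0.16 for Ly49E+CD8aa+ minus Ly49E+CD8aa- (limma adjusted p = 0.585) and 0.21 for Ly49E+CD8aa- minus Ly49E-CD8aa+ (limma adjusted p = 0.357).

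Among the receptors, P2rx7 encodes P2X7, a channel opened by high ATP that can kill lymphocytes, and P2rx4 a channel of the same family with a higher affinity for ATP. They are neighbours on chromosome 5 in the RefSeq annotation. P2rx7 was the most even member, with 9.75, 9.71 and 9.75 in Ly49E+CD8aa+ cells, 9.78, 9.73 and 9.75 in Ly49E+CD8aa- cells, and 9.79, 9.75 and 9.75 in Ly49E-CD8aa+ cells. All 9 arrays lay within a narrow band. Its 3 differences ran from -0.027 to -0.013, and the 95% intervals reached at most -0.15 on the lower side and 0.11 on the upper side (limma adjusted p from 0.964 to 1).

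P2rx4 was at 6.85, 6.52 and 6.59 in Ly49E+CD8aa+ cells, 6.65, 6.51 and 6.57 in Ly49E+CD8aa- cells, and 6.57, 6.48 and 6.67 in Ly49E-CD8aa+ cells. The 3 populations overlapped. Its differences of 0.080, 0.078 and 0.0016, in the order of comparisons used above, did not pass (limma adjusted p = 1, 0.877 and 0.998), with 95% intervals between -0.22 and 0.30.

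P2ry14 encodes a receptor for UDP-glucose and related UDP sugars. Its levels were 6.23, 6.16 and 5.48 in Ly49E+CD8aa+ cells, 6.17, 5.79 and 5.69 in Ly49E+CD8aa- cells, and 6.75, 6.71 and 6.74 in Ly49E-CD8aa+ cells. The Ly49E-CD8aa+ arrays were the 3 highest and lay within 0.034 of each other, while the Ly49E+ populations overlapped and spread widely. The difference of Ly49E+CD8aa- minus Ly49E-CD8aa+ was -0.85 (95% interval -1.28 to -0.41) and just missed the threshold (limma adjusted p = 0.0678). That of Ly49E+CD8aa+ minus Ly49E-CD8aa+ was -0.78 (95% interval -1.21 to -0.34, limma adjusted p = 0.663). Without Ly49E+CD8aa+ replicate 3, the -0.85 was unchanged and passed (limma adjusted p = 0.0106). That array, the lowest of all, entered this comparison only through the shared spread.

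Some markers of dendritic cells were also lower in the Ly49E+ populations. Of 15 markers, 5 fell in Ly49E+CD8aa+ cells against Ly49E-CD8aa+ cells, 0 rose and 10 did not pass. Those that fell were Cybb (-2.48), Siglech (-1.98), Pld4 (-1.91), Cd209d (-1.87) and Ly6d (-1.28). In Ly49E+CD8aa- cells against Ly49E-CD8aa+ cells, 7 were lower, the same 5 with Cd209a (-1.10) and Clec9a (-0.73), 1, Batf3 (0.83), was higher, and 7 did not pass. Between the Ly49E+ populations 0 were called in limma, with 2 at an unadjusted p under 0.05. The mean level over the list ran from 5.67 to 5.78 in Ly49E+CD8aa+, from 5.79 to 5.82 in Ly49E+CD8aa- and from 6.45 to 6.83 in Ly49E-CD8aa+ arrays. Macrophage and monocyte markers had means from 5.11 to 5.19, from 4.99 to 5.06 and from 5.03 to 5.28 in the same order, with 0 of 10 called in limma in any comparison and 1 in each at an unadjusted p under 0.05. In a sorted bulk sample, more cells of a type and more RNA per cell cannot be told apart, and the part of these transcripts in the P2ry14 values was not tested.

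Ada, the adenosine deaminase gene, did not separate the populations. Its levels were 10.00, 9.77 and 9.88 in Ly49E+CD8aa+ cells, 10.10, 9.86 and 9.56 in Ly49E+CD8aa- cells, and 10.14, 9.86 and 9.83 in Ly49E-CD8aa+ cells. The populations overlapped, and in each the array numbered 1 was the highest. The differences were -0.060, 0.039 and -0.099 (limma adjusted p = 1, 0.965 and 0.870), with 95% intervals between -0.42 and 0.36. The mean over 12 enterocyte markers was also highest on the array numbered 1 of each population, at 9.03, 9.12 and 9.06, against 8.57 and 8.59, 8.64 and 8.26, and 8.36 and 8.22 on the other arrays, and 0 of the 12 were called in limma in any comparison (1 in each at an unadjusted p under 0.05). Enterocytes of the mouse small intestine are known to express Ada, and the part of epithelial RNA in its level was not tested.

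Pnp encodes the phosphorylase that acts after Ada. Its levels were 7.80, 7.75 and 7.80 in Ly49E+CD8aa+ cells, 8.35, 8.29 and 8.25 in Ly49E+CD8aa- cells, and 7.82, 8.02 and 8.43 in Ly49E-CD8aa+ cells. The Ly49E+ populations were tight and did not overlap, whereas the Ly49E-CD8aa+ arrays spanned a range of 0.613. The difference of Ly49E+CD8aa+ minus Ly49E+CD8aa- was -0.51 (95% interval -0.81 to -0.21) and did not pass (limma adjusted p = 0.134). It passed without Ly49E-CD8aa+ replicate 3, which entered this comparison only through the shared spread (limma adjusted p = 0.0122), and in a fit of the 6 arrays of the comparison (limma adjusted p = 0.0115). The differences of Ly49E+CD8aa+ minus Ly49E-CD8aa+, -0.31, and of Ly49E+CD8aa- minus Ly49E-CD8aa+, 0.21, did not pass (limma adjusted p = 1 and 0.671).

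Pnp has a close paralogue, Pnp2, and the 2 could share probes. A further row, listed for both and so not assigned to either, read 8.55, 8.39 and 8.12 in Ly49E+CD8aa+ cells, 8.70, 8.40 and 8.41 in Ly49E+CD8aa- cells, and 8.58, 8.39 and 8.22 in Ly49E-CD8aa+ cells. On that row the populations overlapped, unlike the Ly49E+ populations on the Pnp row.

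Upp1, the uridine phosphorylase gene, had the largest difference of the 8 members. Its levels were 6.08, 5.72 and 5.95 in Ly49E+CD8aa+ cells, 10.13, 9.72 and 10.11 in Ly49E+CD8aa- cells, and 6.27, 5.74 and 6.27 in Ly49E-CD8aa+ cells. Every Ly49E+CD8aa- array stood over 3 log2 units above every CD8aa+ array, and the CD8aa+ arrays lay near the array medians. The difference of Ly49E+CD8aa+ minus Ly49E+CD8aa- was -4.07 (95% interval -4.46 to -3.68, limma adjusted p = 2.65e-06), which ranked 9 of 19938 genes by absolute size of the difference in RMA values. The difference of Ly49E+CD8aa- minus Ly49E-CD8aa+ was 3.90 (95% interval 3.51 to 4.28, limma adjusted p = 3.46e-06) and ranked 15. Between the CD8aa+ populations it was -0.17 (95% interval -0.56 to 0.21, limma adjusted p = 1). Both calls passed in all 19 alternatives, with differences from -4.21 to -3.97 and from 3.72 to 4.03.

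**Figure D2:**
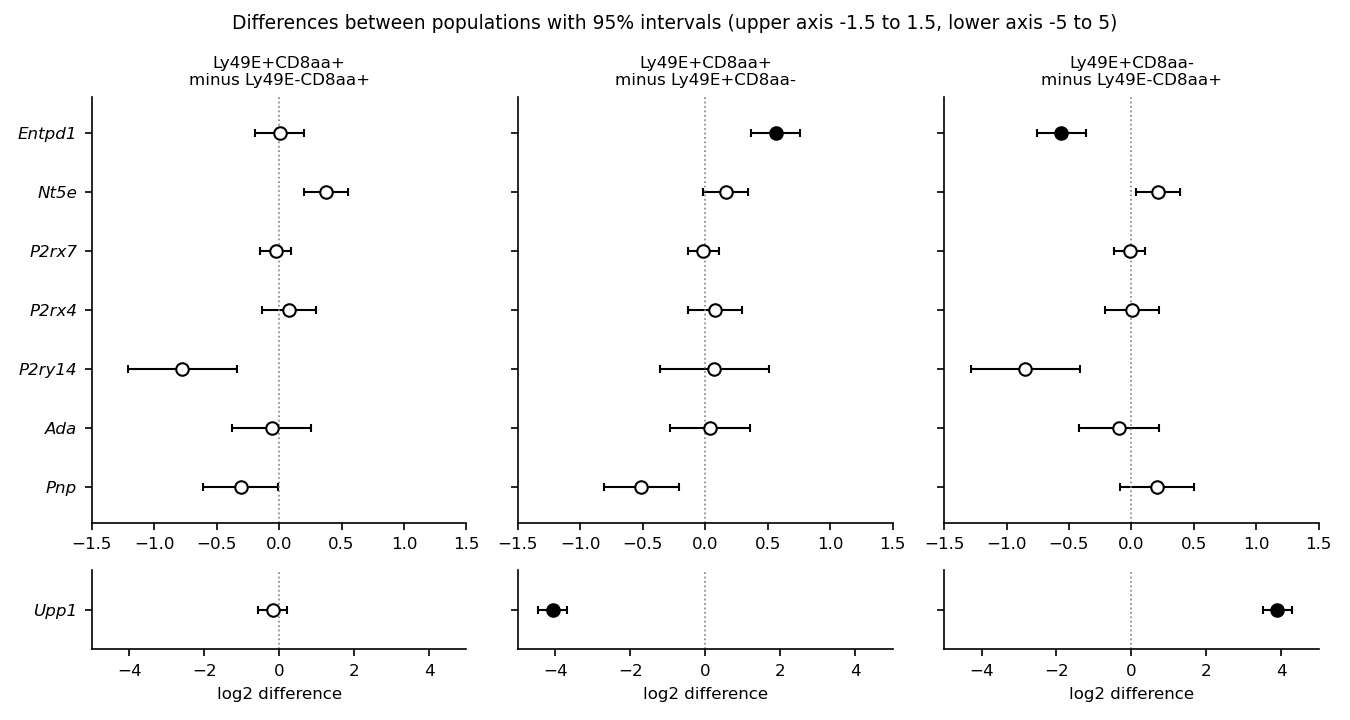
Log2 differences between populations (x axis) for the 8 members (rows), as points with 95% intervals from limma, filled where the adjusted p was under 0.05; the upper panels run from -1.5 to 1.5 and the lower panels, with Upp1, from -5 to 5. Filled points are Entpd1 and Upp1 in the comparisons that include Ly49E+CD8aa- cells, at 0.57 and -4.07 and at -0.56 and 3.90.

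Markers from other cell type lists were called in the same comparisons as Upp1 and Entpd1. Kit, a growth factor receptor gene of the mast cell and granulocyte list, averaged 8.28 in Ly49E+CD8aa+, 9.46 in Ly49E+CD8aa- and 8.16 in Ly49E-CD8aa+ cells. Its differences were -1.17 for Ly49E+CD8aa+ minus Ly49E+CD8aa- (limma adjusted p = 0.000139) and 1.29 for Ly49E+CD8aa- minus Ly49E-CD8aa+ (limma adjusted p = 6.70e-05). Sdc1, a syndecan gene of the B and plasma cell list, averaged 5.22, 5.69 and 5.13 in the same populations, with differences of -0.47 and 0.56 (limma adjusted p = 0.0271 and 0.00969). Each was the only one called, of 10 and of 6 measured markers. Over the mast cell and granulocyte list the array means ran from 4.85 to 5.06, from 4.97 to 5.197 and from 4.77 to 4.97, and over the B and plasma cell list from 5.199 to 5.33, from 5.19 to 5.35 and from 5.18 to 5.36. The B and plasma cell list overlapped between all populations, and the Ly49E+CD8aa+ arrays of the mast cell and granulocyte list overlapped with both other populations. The part of such transcripts in the Upp1 and Entpd1 values was not tested.

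The promoters of the 2 members that passed are shown because their transcripts were the ones that separated the populations. Each window runs from 250 bases before to 50 bases after the most upstream RefSeq start of the gene (build GRCm38.p6), both on the plus strand. The bases are those of the reference build, and the sequence of the NOD-SCID mice was not read here. The Upp1 window is chr11:9117758-9118057 and the Entpd1 window chr19:40612116-40612415. Capitals mark matches to the motifs named below.
Upp1: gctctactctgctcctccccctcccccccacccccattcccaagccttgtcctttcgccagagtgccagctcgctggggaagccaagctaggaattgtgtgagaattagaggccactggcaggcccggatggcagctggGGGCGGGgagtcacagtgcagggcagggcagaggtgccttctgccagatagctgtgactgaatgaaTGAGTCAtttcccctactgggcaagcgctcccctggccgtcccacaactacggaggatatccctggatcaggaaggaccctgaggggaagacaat
Entpd1: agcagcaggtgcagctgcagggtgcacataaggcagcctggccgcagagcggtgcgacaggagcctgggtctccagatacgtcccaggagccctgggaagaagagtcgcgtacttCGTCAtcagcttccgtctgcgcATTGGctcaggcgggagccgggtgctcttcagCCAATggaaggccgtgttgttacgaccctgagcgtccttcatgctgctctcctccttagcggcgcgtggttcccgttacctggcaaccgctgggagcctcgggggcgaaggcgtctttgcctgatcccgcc

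The Upp1 window held an AP-1 match (TGANTCA) that begins at -45 and an Sp1 GC box (GGGCGGG) at -111, counted from the start as 0. The Entpd1 window held the core of the cAMP response element (TGACG, on the reverse strand) at -135 and CCAAT boxes at -113 (reverse strand) and -81. No match overlapped another. Of 32851 RefSeq windows of 300 bases, 7.81% held the AP-1 letters, 25.6% the GC box, 20.8% the cAMP core and 37.4% a CCAAT box. Further motifs were searched on both strands, like those above, and had no match in either window. These were the T-box motif GGTGTGA, found in 3.98% of all windows, the RUNX motif TGTGGTT (5.27%), the AhR motif TTGCGTG (1.16%), the TATA box TATAAA (13.6%) and the NF-kB motif (4.51%). Only full matches were counted, so a shorter form such as GCGTG was not searched. The windows shown differed in CpG dinucleotides, 7 for Upp1 and 23 for Entpd1, with a median of 7 over all windows. Upp1 has 3 annotated windows and Entpd1 has 2, and the arrays do not tell which start was used. These traits change with the start chosen. Windows 2 and 3 of Upp1 held 8 and 13 CpG, and window 2 of Entpd1 held 10. The AP-1 match lay in windows 1 and 2 of Upp1, which overlap, and not in window 3.

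The genes whose levels were most like these members over the 9 arrays were sought among 9967 genes at or above the median level. Closest to Upp1 were Icos, a costimulatory receptor gene (r = 0.997), and the membrane protein genes Tmem176a (r = 0.995) and Tmem176b (r = 0.994). Icos averaged 5.22 ± 0.185 in Ly49E+CD8aa+, 9.08 ± 0.135 in Ly49E+CD8aa- and 5.22 ± 0.0923 in Ly49E-CD8aa+ cells. Closest to Entpd1 were H2az1, a histone variant gene (r = 0.981), Rnf180 (r = 0.978) and Mxra7 (r = 0.978), of which H2az1 itself passed in no comparison. Rnf180 averaged 8.28 ± 0.0213, 6.84 ± 0.225 and 8.34 ± 0.262 in the same populations. These correlations are Pearson coefficients over arrays that fall into populations, so they mostly restate the step between Ly49E+CD8aa- and the other cells, and they carry no test.

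**Figure D3:**
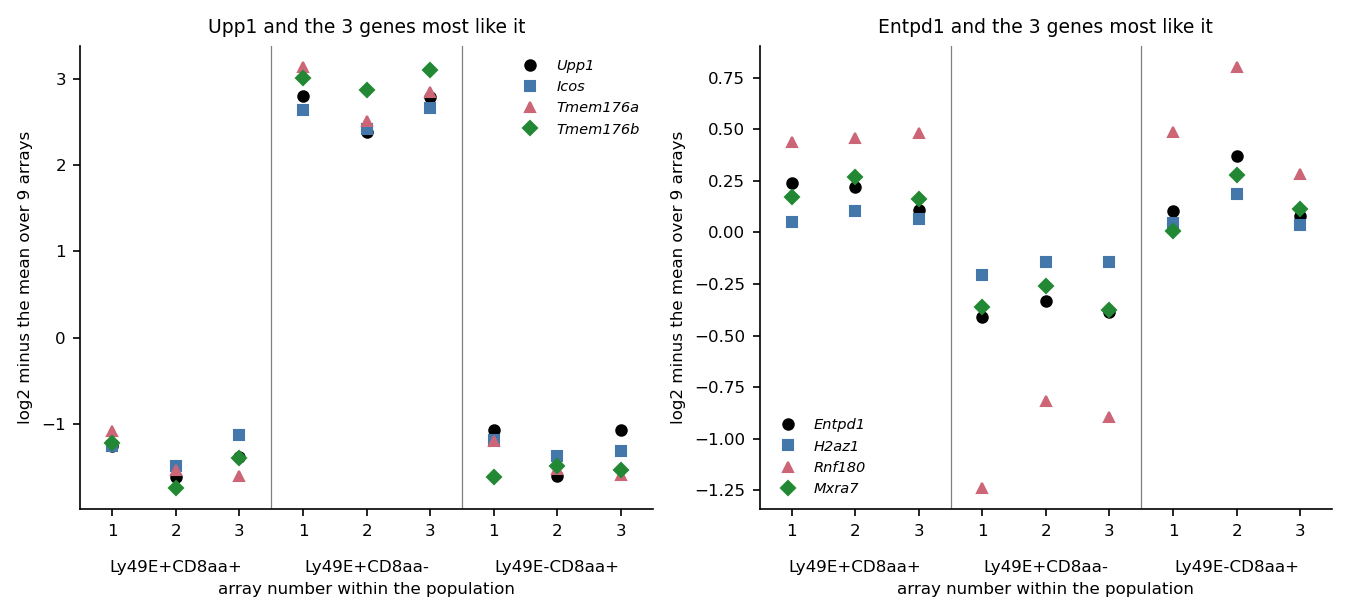
Levels on each of the 9 arrays, as log2 minus the gene's own mean over the arrays, for Upp1 (left) and Entpd1 (right) with the 3 genes most like each; vertical lines part the populations. Upp1 and its 3 companions are high on the Ly49E+CD8aa- arrays, and Entpd1 and its companions lie below their means there, H2az1 by the least.

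Beyond the members, 51 of 60 other listed genes of the pathway had a row of their own, and 9 were not analysed here. The 9 include the adenosine receptor genes Adora1 and Adora3, so no adenosine receptor gene was tested. In Ly49E+CD8aa+ minus Ly49E-CD8aa+ and in Ly49E+CD8aa+ minus Ly49E+CD8aa-, 0 of 51 passed in limma, with 4 and 7 at an unadjusted p under 0.05, beside 4.18% and 9.43% of all genes. In Ly49E+CD8aa- minus Ly49E-CD8aa+, 1 was higher and 1 lower, beside 1.35% and 0.802% of all genes, and 6 had an unadjusted p under 0.05, beside 10.4%. The medians of the 51 differences were -0.013, 0.010 and -0.0072 in the 3 comparisons. Of the 10 further surface enzymes, 1, 1 and 0 reached an unadjusted p under 0.05 in the 3 comparisons, and of the 20 further enzymes of nucleoside catabolism and salvage 1, 1 and 2 did, with 0 past the adjusted threshold. Counted in the same way were 18 genes of cAMP signalling, none of them an adenosine receptor gene, and 10 genes around P2X7 and the inflammasome. Of the 10, Panx1 is also among the 51. Gnas and Prkaca of the cAMP list were not analysed. None of the 18 or of the 10 passed in limma in any comparison. At an unadjusted p under 0.05 there were 0, 3 and 4 of the 18 and 0, 1 and 2 of the 10. These are to be read against the same 4.18%, 9.43% and 10.4%.

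The gene that was higher was P2ry1, which encodes an ADP receptor. It read 6.08, 5.68 and 5.82 in Ly49E+CD8aa- cells, against 5.32, 4.99 and 5.25 in Ly49E-CD8aa+ cells. The arrays did not overlap, and the difference was 0.67 (SE 0.131, limma adjusted p = 0.0325). In Ly49E+CD8aa+ cells it was at 5.04, 5.32 and 5.32, and the difference of Ly49E+CD8aa+ minus Ly49E+CD8aa- was -0.63 (limma adjusted p = 0.0528). The P2ry1 call was kept without Ly49E+CD8aa+ replicate 1 and without Ly49E+CD8aa- replicate 2 (limma adjusted p = 0.0381 and 0.0403) and was lost without each of the other 7 arrays (limma adjusted p from 0.0559 to 0.116) and in the fit of the 6 arrays of the comparison (limma adjusted p = 0.0954).

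The gene that was lower was Slc28a2, which encodes a sodium-coupled transporter that takes up purine nucleosides. It read 7.14, 6.96 and 6.996 in Ly49E+CD8aa- cells, against 7.45, 7.61 and 7.79 in Ly49E-CD8aa+ cells. The arrays did not overlap, and the difference was -0.59 (SE 0.109, limma adjusted p = 0.0254). In Ly49E+CD8aa+ cells it was at 7.45, 7.49 and 7.74, near the other CD8aa+ population, and the difference of Ly49E+CD8aa+ minus Ly49E+CD8aa- was 0.53 (limma adjusted p = 0.0515). The Slc28a2 call was lost without each Ly49E+CD8aa- array (limma adjusted p = 0.0512, 0.104 and 0.0991) and without Ly49E-CD8aa+ replicates 2 and 3 (limma adjusted p = 0.0911 and 0.0900), and in the fit of 6 arrays (limma adjusted p = 0.0625).

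P2ry13, a further ADP receptor gene chosen after its values were seen, had the widest spread among the receptors. It read 4.71, 4.48 and 4.84 in Ly49E+CD8aa+ cells, 4.56, 4.79 and 4.81 in Ly49E+CD8aa- cells, and 6.93, 5.01 and 5.11 in Ly49E-CD8aa+ cells. The single high array, Ly49E-CD8aa+ replicate 1, was also the one with the highest mean of the dendritic cell markers, 6.83. Replicates 2 and 3 of that population had marker means of 6.47 and 6.45. The part of such transcripts in the P2ry13 values was not tested. The differences of -1.01 and -0.96 against Ly49E-CD8aa+ cells did not pass (limma adjusted p = 1 and 0.479).

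**Figure D4:**
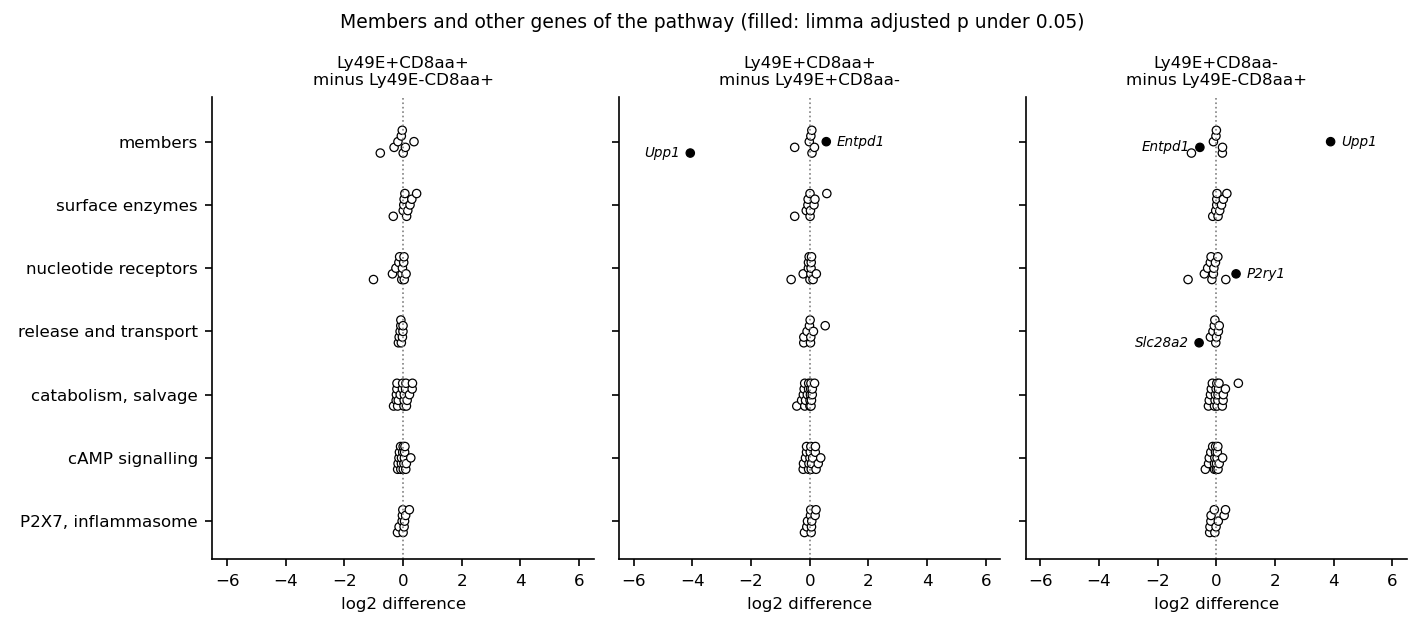
Log2 differences (x axis) of the 8 members and of the other listed genes of the pathway, 1 point per gene, in rows by role and in columns by comparison; filled points had a limma adjusted p under 0.05. Open points crowd around 0, and Upp1 at -4.07 and 3.90 stands apart from the other genes plotted.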

How the data were processed

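RNA of 9 sorted samples was amplified and hybridised to 1-colour Affymetrix Mouse Gene 1.0 ST arrays, per the labels. The deposited values were log2 expression values made by RMA, per the submitters' processing notes (version, build and annotation not given in the sources used here). Values on the log2 scale, a scale inferred from their range, ran from 1.84 to 13.8. The number of arrays limits the precision (median SE of a difference 0.0976).

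Of 35556 rows, 21789 had 1 gene symbol in the platform annotation, 1621 several and 12146 were unnamed here, and 21698 were matched to a gene record by identifier. The row with the highest mean stood for a gene. limma 3.58.1 in R 4.3.3 was fitted to all 19938 genes and 9 arrays with a mean per population and no block (6 residual degrees of freedom), 2-sided, with Benjamini-Hochberg adjustment over all genes. The fit was tested on simulated data. The members and lists were chosen with earlier results of these data known. Named genes were the members, the sort markers, called genes of the lists (at most 6 per list and comparison) and the 3 genes most correlated with each member past the F test. Outside that rule, P2ry13, Clec9a and Batf3 were named after their values were seen. Promoter windows are from RefSeq (GRCm38.p6). Alternatives changed the arrays fitted, normalization, variance prior, weights, rows and replicates.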

Additional observations from a re-analysis of the deposited data

How the results depend on the processing

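Each of the 24 member differences was computed under 19 alternatives, 456 in all, and 445 stayed on the same side of the threshold. Of the others, 4 lost the call, all of Entpd1, and 7 gained one, 2 of Pnp and 5 of P2ry14, and none of the calls turned its sign. Leaving out 1 array, the number of members called was 0 in each fit for Ly49E+CD8aa+ minus Ly49E-CD8aa+, 1 to 3 for Ly49E+CD8aa+ minus Ly49E+CD8aa-, 2 to 3 for Ly49E+CD8aa- minus Ly49E-CD8aa+ and 1 to 3 by the F test, where Entpd1 was lost without each Ly49E+CD8aa- array. P2ry14 passed in Ly49E+CD8aa- minus Ly49E-CD8aa+ among genes at or above the median level, after quantile normalization, in the fit of 6 arrays and without Ly49E+CD8aa+ replicate 3 (limma adjusted p = 0.0433, 0.0480, 0.0357 and 0.0106).

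With the replicate number as a block, P2ry14 passed in the same comparison (limma adjusted p = 0.0358), P2ry1 did not (limma adjusted p = 0.0542), and the members called were 0, 2 and 3 in the 3 comparisons and 2 by the F test. The labels do not say that a number marks a shared mouse, litter or day. Same-numbered arrays correlated by -0.063 to 0.22 in their deviations from the population means, over 0.1 in 4 of 9 pairs. These included all 3 pairs of arrays numbered 1 (0.17, 0.22 and 0.13), the arrays with the highest Ada and enterocyte marker levels. Arrays of different numbers correlated by -0.17 to 0.10, below each of those 3 pairs. Of 18 arrays set against another population, 10 correlated best with their own number. The other numbers were not over 0.1 in every pair, and the samples were not treated as paired. A shared effect of the arrays numbered 1 was not tested. Over all genes, the 26 called in Ly49E+CD8aa+ minus Ly49E-CD8aa+ became 17 with the block, 15 among the brighter genes, 0 with the 6 arrays (695 at an unadjusted p under 0.05) and 5 to 10 without any 1 array but Ly49E-CD8aa+ replicate 2, without which it was 32. The 429 called in Ly49E+CD8aa- minus Ly49E-CD8aa+ became 263 with the 6 arrays, and the 405 called by the F test became 248 without Ly49E+CD8aa- replicate 3. Slc28a2 also lost its call with arrays centred on their medians (limma adjusted p = 0.0505). No detection calls were used, so levels near the array medians, such as Upp1 in the CD8aa+ populations, P2ry14 and P2ry1, are not separated from background, and fold changes of dim genes may be compressed.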
